A study of Homo sapiens with 4 samples.

Results

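The cytosolic ribosomal protein genes are those that encode the protein subunits of the ribosome outside mitochondria. They were collected by symbol: every probe set with a single gene symbol that spelled a protein of the small subunit (RPS) or the large subunit (RPL), or that read RPLP0, RPLP1, RPLP2 or RPSA. A probe set is a group of short array probes that together measure one transcript or a stretch of it. The rule found 120 probe sets for 59 genes, out of 54613 probe sets tested and 19775 genes named on the array. Of these, 20 genes (49 probe sets) encode small-subunit proteins, 30 genes (58 probe sets) large-subunit proteins, 2 genes (4 probe sets) stalk proteins and 7 genes (9 probe sets) near copies of a ribosomal protein. A further 65 probe sets carried a ribosomal protein symbol beside other symbols and were not named. RPLP0, RPSA, RPL5, RPL10 and RPL26 had no probe set of their own under this rule and were not analysed here.

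The values came from SH-SY5Y cells, an established human neuroblastoma line of noradrenergic origin. The groups were cells treated with Accell small interfering RNA, a self-delivering form, against TSPAN8 for 72 h (2 arrays), and cells labelled transfection control that were incubated equally long (2 arrays). All cells grew in the same medium with serum, and 100 ng of total RNA per sample was amplified for the array. The labels do not state what the control cells received. They do not state either whether the samples within a group were grown separately, so every p-value rests on the spread between these particular samples, and that spread may be technical.

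A cytosolic ribosome joins a small subunit, which reads the mRNA, with a large subunit, which forms peptide bonds. Cells make nearly equal numbers of each subunit protein, and growing cells devote much of their mRNA to them. Most of these mRNAs begin with a C followed by an uninterrupted run of C and T bases, the 5' terminal oligopyrimidine element (TOP). Through this element mTOR signalling and the RNA-binding protein LARP1 control the translation of these mRNAs, mostly without a matching change in their amount. Array values measure mRNA amount only. TSPAN8 encodes a tetraspanin, a membrane protein of the cell surface.

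Transcript starts of the members show the feature that the symbol rule did not use. RefSeq starts on GRCh38.p14 were matched for 51 of the 59 genes, which have 59 starts between them. A start was counted as TOP where the transcript strand had C at the start base followed by at least 4 more C or T bases. That held for 35 of 59 starts (59.3%), against 1429 of 35116 starts in the whole table (4.07%). By gene it held for 35 of 51 members (68.6%), against 5.14% of all genes. When the run was allowed to begin up to 5 bases before or after the annotated start, the share was 76.3% of member starts and 21.1% of all starts. Members other than near copies had it in 34 of 46 genes (73.9%), near copies in 1 of 5 genes, and mitochondrial ribosomal proteins, which serve a separate ribosome, in 5 of 67 genes. A match describes letters in the reference and is not a measured site.

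Starts are printed for a chosen part of the genes named below, so that the element and its absence can be read side by side. RPL37, RPS15A and RPL3L had no matched start. RPS19, RPL11, RPS6 and RPS18 had matched starts that are not printed. Each line holds 10 bases before the start and 15 bases from it, 5' to 3' on the transcript strand, with the uninterrupted run of C and T from the start base, the 11th letter, in capitals. The last 15 bases begin the first exon as RefSeq annotates it.
RPS24, chr10:78033853-78033877, plus strand: aatcgtggttCTCTTTTCCTCCTTg
RPL37A, chr2:216498834-216498858, plus strand: gcgtctcttcCTTTCTgggctcgga
RPL38, chr17:74203668-74203692, plus strand: aagtctcgttCTTTTTCgtcctttt
RPL27A, chr11:8682782-8682806, plus strand: gaaggccttcCTTTTTCgtctgggc
RPL3, chr22:39319609-39319633, minus strand: gccgaccggcCTCTaccggcgggat
RPLP1, chr15:69452808-69452832, plus strand: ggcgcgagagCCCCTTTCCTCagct
RPLP2, chr11:809957-809981, plus strand: tcggcgccttCCTTTTCCTCCCTgt
RPL22, chr1:6199581-6199605, minus strand: cgctcacctcCCTTTCTaactccgc
RPL22L1, chr3:170870181-170870205, minus strand: ccgtagcttcCTCTCTgctctcgcg
RPS27, chr1:153990752-153990776, plus strand: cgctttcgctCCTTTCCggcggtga
RPS27L, chr15:63157463-63157487, minus strand: gatgccgagcgcagatcgcttgcag
RPL10L, chr14:46651767-46651791, minus strand: gtagttaagagagcgcattttgact
RPL7L1, chr6:42879606-42879630, plus strand: gtgcggcgccgtagctaggagcgga

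The capital run was 14 bases in RPS24, 13 in RPLP2 and 11 in RPLP1. In RPL38, RPL27A, RPL22 and RPS27 it was 7 bases, and in RPL37A and RPL22L1 it was 6. RPL3 begins with C but its run was 4 bases, 1 short of the definition. RPS27L, RPL10L and RPL7L1 begin with G and have no run, whereas RPS27, the partner of RPS27L, has one. RPL26L1 has 2 annotated starts, and neither begins with C.

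The targeted gene checked the labels. On the deposited log2 scale TSPAN8 was at 6.25 and 6.35 after knockdown and at 7.52 and 7.62 in control. The difference was -1.27 ± 0.062 (limma, SE; adjusted p = 0.0026), 41.5% of the control level. It was the 1 probe set of 54613 (0.00183%) at an adjusted p under 0.05, and likewise the 1 gene of 19775 (0.00506%) when each gene was represented by its probe set of highest mean. Pearson's r between arrays across probe sets lay between 0.997 and 0.998. The knockdown arrays were not closest to each other. Knockdown array 2 had an r of 0.9981 and 0.9983 with control arrays 1 and 2, and 0.9979 with knockdown array 1. The 3' minus 5' difference of the ACTB control, a sign of RNA quality, was 2.00 and 2.18 (knockdown) against 2.14 and 1.98 (control). Of 9 measured noradrenergic markers, 8 lay above the array median and TH, at 5.92 to 6.12, did not. Of the 9, 8 were lower after knockdown, with a log2 summed level of 14.82 and 14.88 against 14.95 and 14.96. Of 10 mesenchymal markers, 9 lay above the array median as well, so this level does not tell the 2 lists apart. Of the 10, 7 were higher after knockdown, with a summed level of 14.35 and 14.05 against 14.12 and 14.04. Knockdown array 1 thus stood above the other 3 arrays. Values of this kind have no 0, so absence cannot be read from them. In RNA from whole cultures, fewer cells of a type and less RNA per cell cannot be told apart. The part of these markers in the results below was not tested.

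Many ribosomal protein probe sets sat at the top of the measured scale. Of the 120, 66 had a mean of 13 or more, which placed the lowest of them at percentile 99.54 of all probe sets. Another 14 lay between 9 and 13, and 40 lay below 9, of which 14 were below the median of all probe sets (6.59). At least 1 probe set at 13 or more was found for 48 of the 59 genes. The other 11 were RPL10L, RPL22L1, RPL26L1, RPL27A, RPL36, RPL36A, RPL39L, RPL3L, RPL7L1, RPLP2 and RPS27L. Values of different probe sets depend on their probes as well as on the transcript, so this order is not an order of mRNA amounts. The highest probe set belonged to RPL41, which encodes a very short basic peptide of the large subunit, at 14.55 and 14.56 (knockdown) and 14.49 and 14.60 (control). RPL37A (201429_s_at) and RPS18 (201049_s_at) came next. The lowest belonged to RPS6 (211690_at), RPL35A (215249_at) and RPLP2 (217670_at), and the first 2 of these genes also had probe sets above 13.

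RPL3 and RPLP2 were taken as markers of the group. RPL3, a large-subunit protein that lies close to the peptidyl transferase centre, was at 13.46 and 13.41 after knockdown and at 13.42 and 13.54 in control (215963_x_at). Its difference was -0.048 ± 0.060 (limma, SE), with a 95% interval from -0.19 to 0.092. RPLP2, an acidic protein of the stalk that recruits elongation factors, was represented by dim probe sets only. Its 200908_s_at was at 6.79 and 6.81 against 6.61 and 6.77, and its 217670_at at 6.01 and 5.98 against 5.94 and 6.02, at percentile 19.2. RPL3 thus had a probe set above 13 and RPLP2 did not. Membership was set by symbol, so these levels do not check the label. The other stalk protein, RPLP1, was at 14.08 on each knockdown array and at 13.98 and 14.12 on the control arrays (200763_s_at), a difference of 0.028 ± 0.062.

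No ribosomal protein probe set passed the test between knockdown and control. The lowest adjusted p among the 120 was 0.584 (limma, Benjamini-Hochberg over all probe sets). At an unadjusted p under 0.05, 4 members were higher, where 3.72% of all probe sets were, and 1 was lower, where 4.12% were. Differences of the members ran from -0.19 to 0.31 with a median of 0.017, beside a median of -0.0000 over all probe sets. SEs ran from 0.051 to 0.12. Of the 120, 90 lay above and 30 below control, whereas 50.0% of all probe sets lay below. That split was 70 to 49 after a second quantile normalization and 67 to 53 after centring each array on its median. It also turned on the control arrays. Without control replicate 1 the median was -0.042 with 93 of 120 members below control, and without control replicate 2 it was 0.073 with 99 above.

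**Figure D1:**
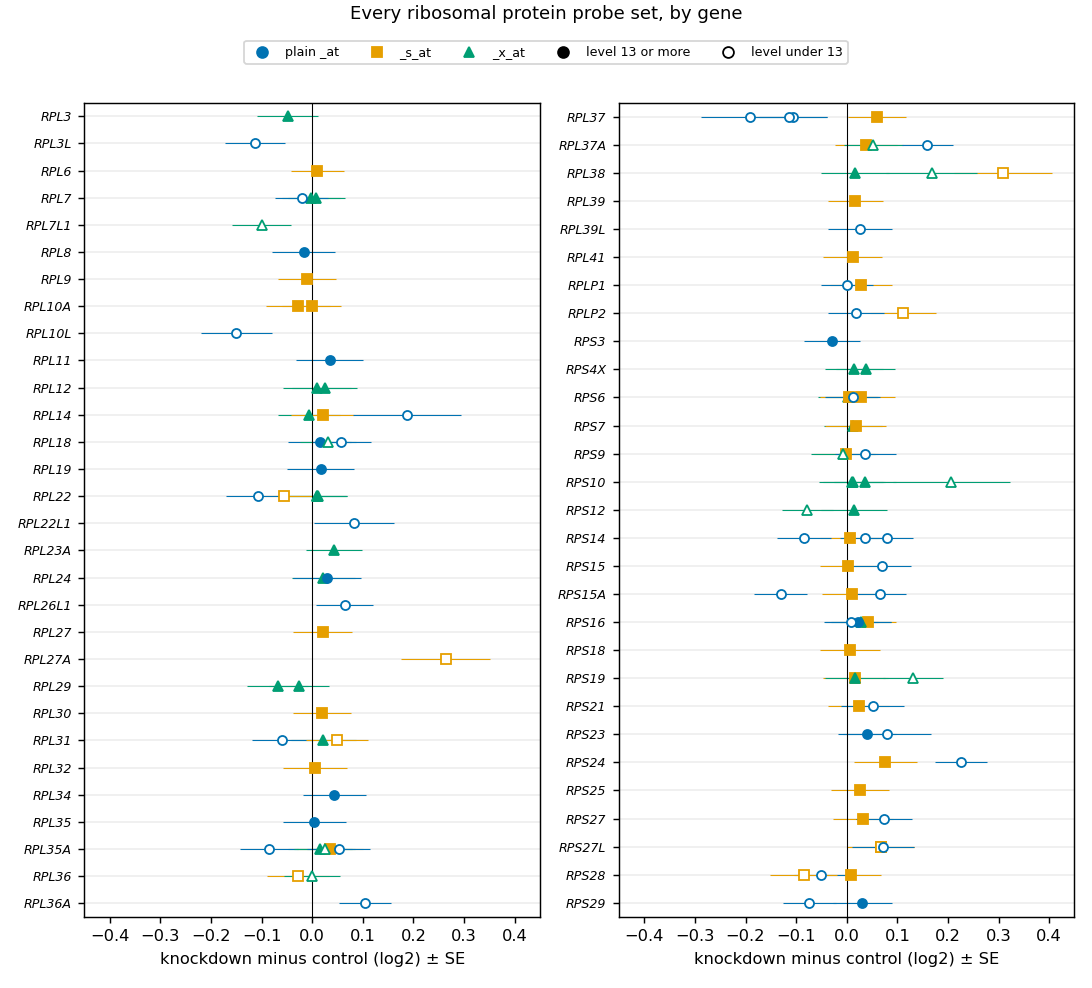
Knockdown minus control (horizontal axis, log2, with limma's SE as bars) of all 120 ribosomal protein probe sets, by gene (vertical axis). Shape and colour give the probe set class, filled symbols are probe sets at 13 or more, which lie within 0.077 of 0, and open symbols are the rest, which run from -0.19 to 0.31.

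Groups did not overlap for 23 members. Both knockdown arrays lay above both control arrays in 12 of them, where 17.7% of all probe sets did so, and below in 11, where 19.8% did. Most of these 23 were dim: RPL37 (200092_s_at) was the only one with a mean of 13 or more, at 14.00 and 14.01 (knockdown) against 13.89 and 14.00 (control). Small-subunit probe sets had a median difference of 0.017 with 40 of 49 above control, and large-subunit probe sets had a median of 0.015 with 40 of 58 above.

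**Figure D2:**
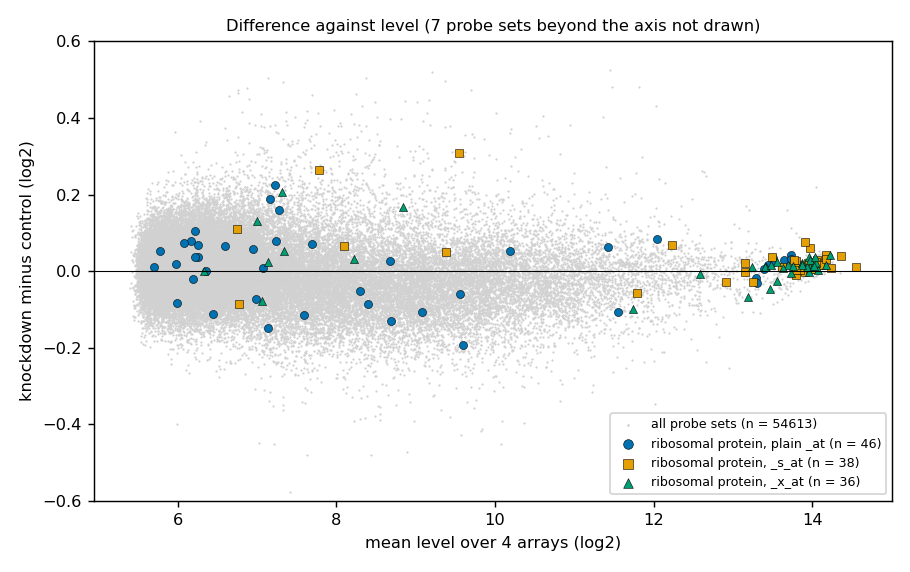
Knockdown minus control (vertical axis, log2) against the mean log2 level over the 4 arrays (horizontal axis) for all 54613 probe sets (grey) and the ribosomal protein probe sets by class (46 plain, 38 _s_at and 36 _x_at). Members crowd at the right end close to 0, and the dim ones lie within the grey cloud.

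Bright members shared one pattern across the arrays. All 66 with a mean of 13 or more were higher on control array 2 than on control array 1, by a median of 0.126 (range 0.051 to 0.179). The knockdown arrays differed from each other by a median of 0.0033 (range -0.049 to 0.045). Both knockdown values lay between the control values in 59 of the 66 (89.4%), where 13.5% of all probe sets had this order. RPS18, a small-subunit protein, was at 14.24 on each knockdown array and at 14.17 and 14.29 on the control arrays. RPS6, the small-subunit protein that S6 kinases phosphorylate, was at 14.07 on each knockdown array and at 14.01 and 14.13 on the control arrays (201254_x_at). RPL11, which binds 5S rRNA and can inhibit MDM2, was at 13.52 and 13.54 against 13.41 and 13.58. In each of these 3 genes the spread within the control group contained the knockdown values. The 7 exceptions were single probe sets of RPL3, RPL6, RPL23A, RPL29, RPL37, RPS16 and RPS24, which were listed after their values were seen.

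Other bright probe sets were read the same way. Of 182 probe sets at 13 or more without a ribosomal protein symbol, 64 (35.2%) had both knockdown values between the control values, and control 2 exceeded control 1 by a median of 0.058. Probe sets that carry a ribosomal protein symbol beside others had it in 40 of 44 cases (90.9%), with a median control 2 minus control 1 of 0.138. The difference between these shares was not tested, since probe sets of an array are not replicates. The arrays also differed at the top of the scale in general. The median of the 300 highest values was 13.59 and 13.55 after knockdown and 13.54 and 13.60 on control arrays 1 and 2. A second quantile normalization makes these medians equal. The order then held for 17 of the 66 bright members, and control 2 exceeded control 1 in 50 of them. Among the 226 other probe sets at 13 or more, including those with a ribosomal protein symbol beside others, these counts were 40 and 96. After median centring the order held for 60 of the 66 bright members and for 98 of the 226. These counts were not tested against each other. Against knockdown, bright members had a median difference of 0.015, with 55 above and 11 below control. That median was 0.0029 with a split of 37 to 28 after the second quantile normalization, and 0.0014 with 36 to 30 after centring.

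**Figure D3:**
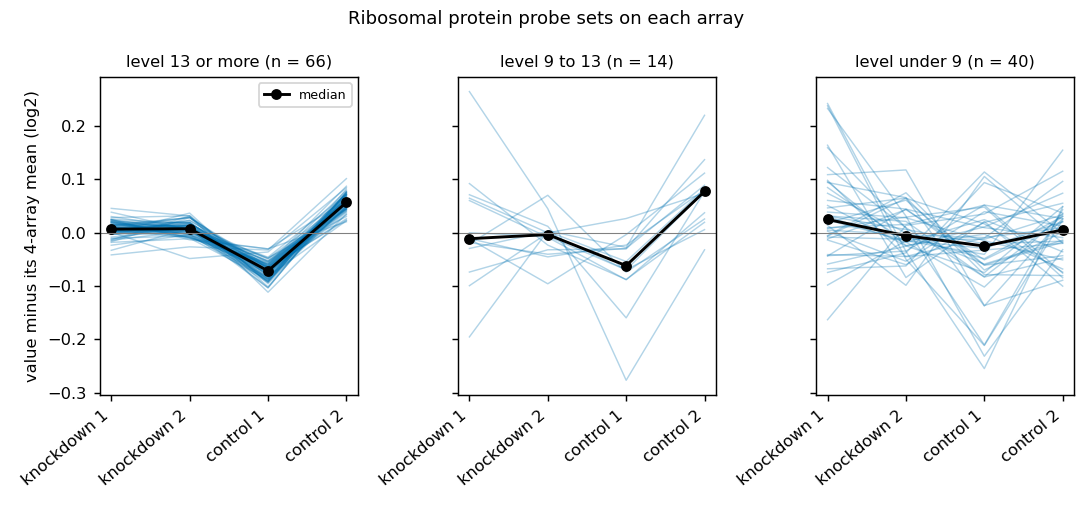
Value of each ribosomal protein probe set minus its own mean over the 4 arrays (vertical axis, log2) on knockdown arrays 1 and 2 and control arrays 1 and 2 (horizontal axis), in panels for 66 bright, 14 intermediate and 40 dim members. Thin lines are probe sets and the black line is their median, which for bright members is 0.0065 and 0.0072 for knockdown and -0.072 and 0.057 for control.

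Members with the smallest p were not among the bright ones. None of the 10 described next, 5 in each direction, reached 13, and all but RPL22 (mean 11.55) had a mean below 10. RPS24 encodes a small-subunit protein needed to process the precursor of 18S rRNA. Its 1555878_at was at 7.33 and 7.34 after knockdown and at 7.09 and 7.13 in control. The groups did not overlap, and the difference was 0.23 ± 0.052, with a 95% interval from 0.11 to 0.35 (limma adjusted p = 0.584). The other RPS24 probe set, 200061_s_at, was at 13.95 and 13.93 against 13.79 and 13.94, a difference of 0.077 ± 0.063.

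RPL38 encodes a small large-subunit protein known from mouse work for its role in translating Hox mRNAs. Its 202028_s_at was at 9.81 and 9.59 after knockdown and at 9.27 and 9.51 in control, a difference of 0.31 ± 0.097 (limma adjusted p = 0.603). The groups did not overlap, with an SD of 0.16 for knockdown and 0.17 for control. The bright RPL38 probe set 202029_x_at differed by 0.017. RPL27A, a large-subunit protein with 1 probe set here (212044_s_at), was at 8.01 and 7.81 against 7.55 and 7.75, a difference of 0.26 ± 0.088 (limma adjusted p = 0.603). RPL37A, a zinc-binding large-subunit protein, was at 7.38 and 7.35 against 7.20 and 7.20 on 213459_at, a difference of 0.16 ± 0.051. Its bright probe set 201429_s_at differed by 0.039. RPS19 is the gene most often mutated in Diamond-Blackfan anaemia, an inherited failure of red cell production. Its 242451_x_at was at 7.12 and 7.01 against 6.92 and 6.95, a difference of 0.13 ± 0.059, and its bright probe sets differed by 0.017 and 0.016.

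Among the lower members, 1 met the unadjusted mark of 0.05. RPS15A, a small-subunit protein, was at 8.62 and 8.63 after knockdown and at 8.78 and 8.73 in control on 235309_at, a difference of -0.13 ± 0.053 (limma adjusted p = 0.630). Its bright probe set differed by 0.011. RPL37, another zinc-binding large-subunit protein, was at 9.40 and 9.60 against 9.57 and 9.82 on 224763_at, a difference of -0.19 ± 0.095 with groups that overlapped. Its 224767_at and 224766_at each differed by -0.11, while the bright 200092_s_at differed by 0.060. RPL22 binds RNA and is dispensable for making ribosomes. Its 221726_at was at 11.54 and 11.46 against 11.55 and 11.67, a difference of -0.11 ± 0.062, while its 3 probe sets at 13 or more differed by 0.0094 to 0.011. RPL10L and RPL3L, the other 2 of the 5, are near copies and are described with them. In RPS24, RPL38, RPL37A, RPS19, RPS15A, RPL37 and RPL22 the bright probe sets were within 0.077 of control. The less bright probe set described for each differed more. How far changes register at the top of the scale was not tested.

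**Figure D4:**
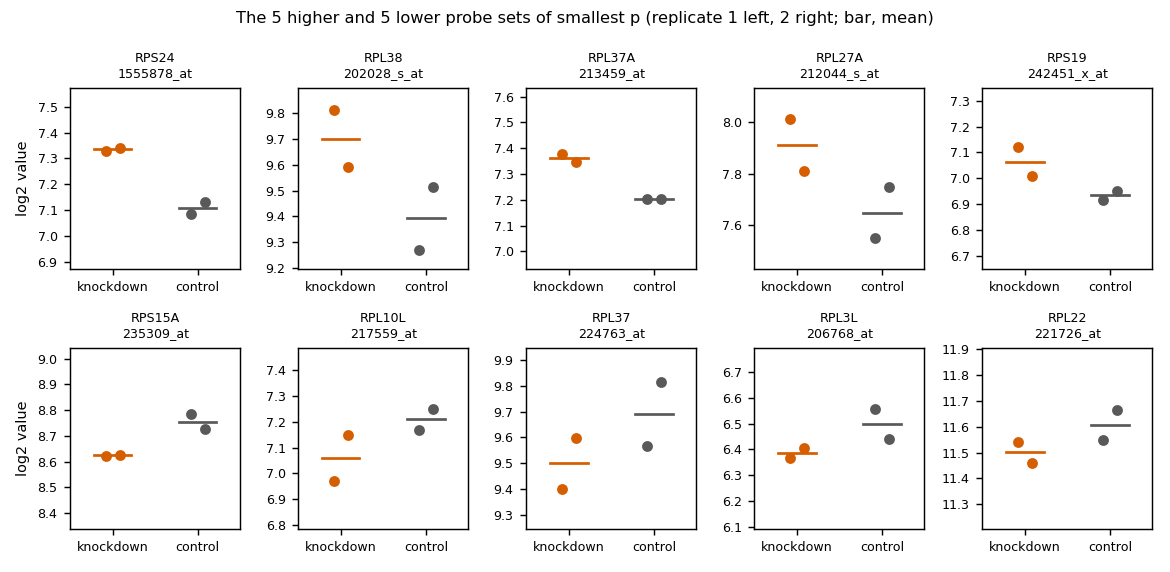
Log2 values (vertical axes, a separate range per panel) on the knockdown and control arrays of the 5 higher and 5 lower ribosomal protein probe sets of smallest p, with replicate 1 left, replicate 2 right and a bar at the mean. In RPS24, RPL38, RPL37A, RPL27A and RPS19 both knockdown points lie above both control points.

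One array decided whether any member was called. Without knockdown replicate 2, 1026 probe sets (1.88%) had an adjusted p under 0.05, and 4 of the 120 members were among them. With an array left out, its group holds 1 array, so the spread comes from the other group alone and the lone array is assumed to vary like it. RPL38 (202028_s_at) then differed by 0.42 (limma adjusted p = 0.0068) and RPL27A by 0.36 (adjusted p = 0.014), where with all 4 arrays each had an adjusted p of 0.603. The other two, named after their values were seen, were dim probe sets of RPL14 (219138_at) and RPS10 (214001_x_at). RPL14 was at 7.40 and 7.11 after knockdown and at 6.95 and 7.19 in control. RPS10 was at 7.56 and 7.28 against 7.06 and 7.36. In each of these 4 the value on knockdown array 1 was the highest and that on control array 1 the lowest. No member was called when any other single array was left out.

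Probe sets of one gene often went separate ways. Among the 34 genes with several probe sets, 13 had differences of both signs, and no gene had more than 5 probe sets. RPL38, RPL37 and RPS15A had the widest ranges, at 0.29, 0.25 and 0.20. Array suffixes mark how specific a probe set is: _s_at sets match several transcripts of a family and _x_at sets hold probes that can bind unrelated transcripts, which matters here because ribosomal protein genes have many processed pseudogenes. The median difference was 0.024 for 46 probe sets without such a suffix (31 above control), 0.019 for 38 _s_at sets (31 above) and 0.014 for 36 _x_at sets (28 above). The order of arrays among bright members was present in each class, in 11 of 11 plain sets, 25 of 29 _s_at sets and 23 of 26 _x_at sets. Signal from near-identical copies cannot be separated in _s_at and _x_at sets.

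Near copies are genes that arose by duplication, and some of them encode proteins that can replace a ribosomal protein in some tissues. Their 9 probe sets had a median difference of 0.064, and none passed the test (lowest limma adjusted p = 0.652). RPL10L, a testis-expressed copy of RPL10, was at 6.97 and 7.15 after knockdown and 7.17 and 7.25 in control, a difference of -0.15 ± 0.070. RPL3L, the copy of RPL3 used in striated muscle, was at 6.37 and 6.40 against 6.56 and 6.44, a difference of -0.11 ± 0.059. Both lay near the median of all probe sets. RPL7L1, which resembles RPL7, was at 11.64 and 11.74 against 11.76 and 11.81, a difference of -0.10 ± 0.058. In these 3 of the 9 probe sets both knockdown arrays lay below both control arrays, where 19.8% of all probe sets did so.

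RPS27L, a copy of RPS27 that p53 can induce, differed by 0.067 to 0.071 on its 3 probe sets. The brightest, 218007_s_at, was at 12.32 and 12.21 against 12.14 and 12.25, so the groups overlapped. Its partner RPS27 was at 14.19 and 14.20 against 14.10 and 14.22 (200741_s_at), a difference of 0.032 ± 0.059. RPL22L1, whose level RPL22 is known to restrain, was at 12.11 and 12.05 against 11.88 and 12.11, a difference of 0.083 ± 0.080. RPL26L1 differed by 0.064 ± 0.056 and RPL39L by 0.026 ± 0.062. The partner RPL39 differed by 0.017, and RPL7 by -0.0020 and 0.0078 on its bright probe sets and by -0.021 on its dim one. Near copies and their partners were not tested against each other.

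Genes that share the ribosome's supply line were read by gene, each represented by its probe set of highest mean. On that count the 59 member genes had a median difference of 0.015 with 13 below control, while all genes had a median of -0.0094 and 55.6% lay below. At an unadjusted p under 0.05, 2.39% of all genes were higher and 5.57% lower. Of the member genes, 1 was higher and 0 were lower by that mark. No gene of the lists that follow passed the adjusted threshold, and the lowest adjusted p in them was 0.577 (limma).

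Ribosomal proteins of mitochondria, encoded in the nucleus and built into a separate ribosome, had a median of 0.019 over 75 genes with 33 below control. By the unadjusted mark 0 were higher and 3 lower, MRPS27 (-0.15), MRPL28 (-0.13) and MRPL4 (-0.14). Of their probe sets, 1 of 2 lay below control for MRPS27, 2 of 3 for MRPL4 and the only 1 for MRPL28. Without knockdown replicate 1 the median of this list was -0.029, and without control replicate 1 it was -0.025. Other mRNAs known to carry a TOP element, mainly translation factors, had a median of -0.022 over 18 of 20 listed genes with 11 below control. Without control replicate 2 the median was 0.025 with 6 below. None of the 18 met the unadjusted mark. EEF2, the factor that moves the ribosome along the mRNA, was at 13.26 and 13.31 against 13.39 and 13.40, a difference of -0.11 ± 0.052. EIF3F differed by -0.062, but only 1 of its 3 probe sets lay below control. The gene gave 0.065 when its value on each array was the median level of its 3 probe sets. PABPC1 differed by -0.051, with 1 of its 2 probe sets below control. FAU and RPL36AL, ribosomal proteins whose symbols the rule does not spell, differed by 0.031 and 0.0090.

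Factors that build ribosomes had a median of -0.049 over 36 of 43 listed genes with 26 below control, and 21 below after the second quantile normalization. By the unadjusted mark 0 were higher and 2 lower. MDN1, an ATPase that strips assembly factors from the maturing large subunit, was at 8.07 and 8.18 against 8.48 and 8.39, a difference of -0.31 ± 0.062 (limma adjusted p = 0.577), and 1 of its 3 probe sets lay below control. NOB1, the nuclease that finishes 18S rRNA, differed by -0.16, and MYBBP1A by -0.11. Genes of RNA polymerase I and rRNA transcription had a median of -0.030 over 14 of 17 listed genes, with 9 below control and 7 after the second quantile normalization. TCOF1 (-0.13) and TAF1C (-0.17) were the 2 that met the unadjusted mark, and RRN3 differed by -0.11. For TCOF1, 2 of 3 probe sets lay below control.

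Regulators of mTOR signalling and of TOP mRNAs had a median of -0.099 over all 17 listed genes with 13 below control. That median was -0.083 after the second quantile normalization and -0.11 after centring. By the unadjusted mark 0 were higher and 3 lower. TSC2, a brake on mTOR complex 1, was at 7.19 and 7.30 against 7.50 and 7.44, a difference of -0.23 ± 0.060 (limma adjusted p = 0.603). The other TSC2 probe set differed by -0.038. MLST8, a subunit of mTOR complexes, differed by -0.13. LARP4, which binds poly(A) and PABPC1, differed by -0.17, but 3 of its 5 probe sets lay above control. For each of TSC2, MLST8 and LARP4, picked by smallest p, the arrays of the groups did not overlap on the probe set used. Of the 17 listed genes, 10 were lower without overlap, as were 4789 of all 19775 genes. All genes are dimmer, with a median level of 7.22 against 9.89 here, 10.04 for the assembly factors and 9.45 for the polymerase I list. Of 7932 probe sets between 9 and 13 without a ribosomal protein symbol, 5039 lay below control and 2489 were lower without overlap. Their median difference was -0.025. The part of level in these list medians was not tested.

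Free RPL5 and RPL11 with 5S rRNA bind MDM2 and release p53, so genes of that route were listed as well. Of 7, 4 were measured by this count, with a median of -0.026 and 0 meeting the unadjusted mark. Without control replicate 2 that median was 0.024, and without knockdown replicate 1 it was -0.0035. MDM2 differed by -0.087, but only 4 of its 10 probe sets lay below control. The gene gave 0.079 when its value on each array was the median level of its 10 probe sets. MDM4 differed by -0.11 (from -0.21 to -0.016 with 1 array left out), and CDKN1A, a p53 target, by 0.10 (from 0.0092 to 0.20). Of the 6 MDM4 probe sets, 4 lay below control. Genes mutated in Diamond-Blackfan anaemia, all of them ribosomal protein genes here, had a median of 0.019 over 14 of 19 listed genes. All 14 were above control, but 5 were below it after either the second quantile normalization or median centring. Without control replicate 1, 13 of the 14 were below. RPS24 (0.077), RPL35A (0.036) and RPS27 (0.032) had the smallest p of this list, and none met the unadjusted mark.

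**Figure D5:**
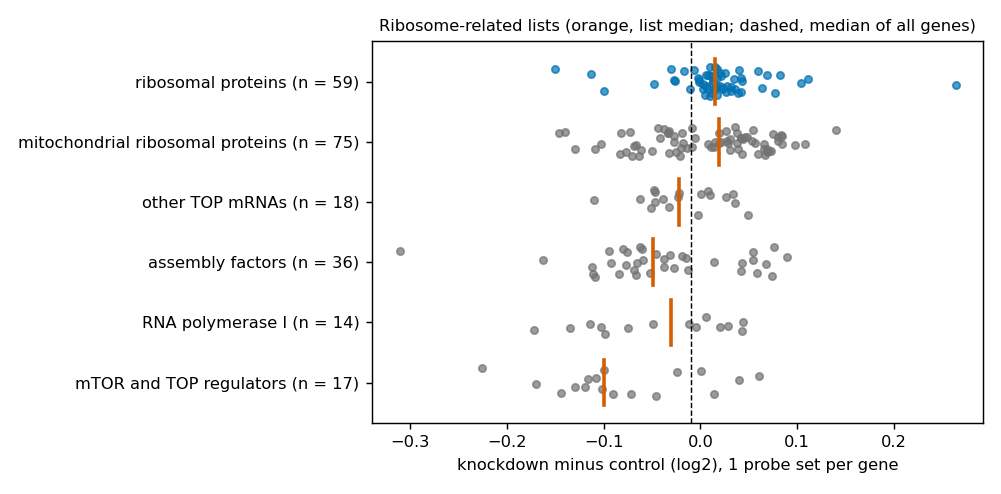
Knockdown minus control (horizontal axis, log2) of each gene, represented by its probe set of highest mean, in 6 gene lists (vertical axis). Orange bars are list medians, 0.015 for the ribosomal protein genes and -0.099 for the regulators of mTOR and TOP mRNAs, and the dashed line is the median of all genes, -0.0094.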

How the data were processed

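Arrays of 54675 probe sets were read as deposited: log2 values made by the authors with RMA (background correction, quantile normalization and a summary per probe set) in R 3.0.1, per the submitters' processing notes, without settings. Detection calls, scanner output and scan dates were not analysed here, and no batch was examined. Near background, log2 values understate changes. Symbols came from the platform annotation, and 62 AFFX controls were left out. Of 54613 probe sets, 41091 had 1 symbol, 1801 several and 11721 were not listed.

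Knockdown minus control was fitted with limma 3.58.1 (lmFit, eBayes, R 4.3.3) across all 54613 probe sets, without covariates. The p-values are two-sided with Benjamini-Hochberg adjustment and a threshold of 0.05, and the fit was tested on simulated data. Intervals are 95%. The number of arrays limits the precision. Members and lists were chosen with earlier results of these data known. The level bands were added after seeing the data.

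Named were TSPAN8, the stalk proteins, RPL3, RPL11, RPS6 and RPS19, near copies with partners, the 5 members of smallest p per direction, the 3 of highest and lowest level, the 3 genes whose probe sets differed most, and 3 genes per list by p. Replicate numbers are not said to pair arrays. Alternatives were a filter on dim probe sets, second normalizations, the replicate number as a block, other variance settings, array weights, probe set classes, summaries per gene and leaving out each array. Sequences are RefSeq's (GRCh38.p14), and no build is named for the array values. Figures were drawn in Python 3.11.15 with matplotlib 3.10.9.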

Additional observations from a re-analysis of the deposited data

How the results depend on the processing

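With the replicate number as a replicate block, 0 of 54613 probe sets passed, TSPAN8 included (-1.27, limma adjusted p = 0.16). Same-numbered arrays deviated together with r = 0.051 over all probe sets and -0.070 over members, so the numbers gave no sign of pairing. Leaving out each array in turn gave 1 to 1026 calls over all probe sets (25 without knockdown replicate 1), 0 to 4 among the members, and member medians from -0.042 to 0.073. Members whose groups did not overlap numbered 23. They numbered 38 after a second quantile normalization, 1 among members at 13 or more, and between 34 and 108 with an array left out. Of 59 genes, they numbered 12 with the median per gene and 7 with the brightest probe set per gene. These 7 were 4 higher and 3 lower, where 2833 of all 19775 genes were higher and 4789 lower without overlap. A group of 1 array overlaps the other group less easily. For the second normalization, the median per gene and the arrays left out, all probe sets were not counted. Those counts therefore do not set the members apart. The count of bright members between the control arrays, 59, was 17 after a second quantile normalization. Of 623 values for 47 named probe sets, 596 kept their direction and side of the threshold, 8 passed it without knockdown replicate 2, 1 (TSPAN8) missed it under the block, and 18 changed sign. With the brightest probe set per gene RPS15A was 0.011, RPL37 0.060 and RPL22 0.011. The median per gene was taken over the levels of its probe sets on each array. With that median RPL22 was 0.0099, EIF3F 0.065, MDN1 0.0015, LARP4 0.16, MDM2 0.079 and RPL35A -0.086. RPL36AL was -0.0047 after median centring. With an array left out, ranges crossed 0 for RPL39L (-0.036 to 0.088), RPS27L (222487_s_at, -0.0019 to 0.14), RPL22L1 (-0.036 to 0.20), FAU (-0.057 to 0.12), RPL36AL (-0.042 to 0.060), RPL35A (-0.043 to 0.11) and RPS27 (-0.030 to 0.094). The cause of these changes was not tested.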
